A study of Mus musculus with 12 samples.

Results

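March1, Lrrc3b, Otud7a and Tmem28 are 4 of the 46078 genes counted by RNA-seq in brains of Nsd2 knockout (KO) and wild-type (WT) mouse embryos. They were chosen by their measured KO and WT levels, with earlier results of these libraries known, as little-studied genes with lower levels in KO than in WT brains of both sexes. Their KO and WT levels are therefore given as a description, without a test. Tests are kept for the sex of the embryo, the Hox content of each library, and the relatives, partners and neighbours of the 4 genes. The lists of relatives and partners were also chosen with earlier results known, so their p-values are not free of that choice. The study used Nsd2 KO male, WT male, Nsd2 KO female and WT female embryos at embryonic day E15.5, all on the C57BL/6 background, with 3 brain libraries in each group and 12 in all. The KO allele was made by CRISPR/Cas9 genome editing and lacks all of the Nsd2 coding sequence; it is not limited to a cell type. Nothing in the sources used here says whether the embryos of a group were littermates, and p-values measure only the spread between these libraries.

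NSD2 is a methyltransferase that places dimethylation on lysine 36 of histone H3. The 4 genes do not form a pathway. March1 encodes a membrane-bound ubiquitin ligase of the MARCH family, best known from antigen-presenting cells, where it tags MHC class II and CD86 for removal from the cell surface. Lrrc3b encodes a small transmembrane protein with leucine-rich repeats. Otud7a encodes a deubiquitinase of the OTU family, and its human ortholog lies in a recurrent microdeletion region tied to neurodevelopmental disorders. Tmem28, also known as Fam155b or Nalf2, encodes a paralog of FAM155A, an auxiliary subunit of the NALCN sodium leak channel that sets the resting excitability of neurons.

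Values are CPM, read counts scaled to a common library size with TMM, edgeR's trimmed mean normalization. Library totals ranged from 40398665 to 59304196 counts. Nsd2 itself, listed as Whsc1, averaged 1.17 ± 0.231 CPM in KO males, against 369 ± 8.65 CPM in WT males, and 1.87 ± 0.688 CPM in KO females, against 388 ± 34.8 CPM in WT females (SD, n = 3 each). No KO library was above 2.67 CPM and no WT library under 348 CPM. All of the 10 neuronal markers, such as Map2 and Dcx, were detected in every group. The libraries differed in the Hox genes of hindbrain and spinal cord: Hoxa5 was under 1 CPM in 6 libraries (KO males 1 and 3, KO female 1, WT male 1, and WT females 1 and 2) and between 13.2 and 53.8 CPM in the other 6. These were bulk brains, in which fewer cells of a type and less RNA per cell cannot be told apart.

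The loci differed in size. March1 is at chr8:65617900-66471637 on the plus strand of GRCm38 and spans 854 kb, longer than 99.4% of the 15401 protein-coding genes tested, whose median span was 24.7 kb. Otud7a is at chr7:63444751-63759028 on the plus strand and spans 314 kb, longer than 96.7% of them. Lrrc3b, at chr14:15357515-15438987 on the minus strand, spans 81.5 kb, and Tmem28, at chrX:99821021-99848790 on the plus strand, spans 27.8 kb and sits near the median.

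RefSeq promoter windows, from 250 bases before to 50 bases after an annotated start on GRCm38.p6, were found for all 4 genes, with 3 alternative starts for March1 (listed there as Marchf1). They are shown because the loci also differed in CpG content, and CG dinucleotides are in capitals. The windows are chr8:65617790-65618089 (plus strand, the first of 3 for March1), chr14:15438938-15439237 (minus strand, Lrrc3b), chr7:63444522-63444821 (plus strand, Otud7a) and chrX:99819914-99820213 (plus strand, Tmem28).
March1: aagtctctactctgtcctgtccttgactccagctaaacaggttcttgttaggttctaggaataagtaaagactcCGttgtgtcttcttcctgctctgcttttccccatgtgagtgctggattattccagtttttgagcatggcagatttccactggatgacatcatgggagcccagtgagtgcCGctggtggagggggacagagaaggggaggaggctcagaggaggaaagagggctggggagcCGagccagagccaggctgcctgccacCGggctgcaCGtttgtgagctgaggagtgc
Lrrc3b: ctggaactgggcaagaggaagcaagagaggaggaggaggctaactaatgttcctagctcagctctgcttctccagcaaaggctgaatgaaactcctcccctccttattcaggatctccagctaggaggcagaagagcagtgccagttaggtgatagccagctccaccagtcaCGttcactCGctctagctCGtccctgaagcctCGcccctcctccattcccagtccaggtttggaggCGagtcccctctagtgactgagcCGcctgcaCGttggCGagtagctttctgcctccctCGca
Otud7a: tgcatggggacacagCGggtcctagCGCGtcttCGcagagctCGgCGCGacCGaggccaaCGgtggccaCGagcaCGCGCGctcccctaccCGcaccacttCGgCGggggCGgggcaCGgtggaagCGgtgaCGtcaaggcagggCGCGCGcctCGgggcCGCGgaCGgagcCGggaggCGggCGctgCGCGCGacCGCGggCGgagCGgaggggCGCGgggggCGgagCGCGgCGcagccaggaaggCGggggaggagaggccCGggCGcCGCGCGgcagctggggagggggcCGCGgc
Tmem28: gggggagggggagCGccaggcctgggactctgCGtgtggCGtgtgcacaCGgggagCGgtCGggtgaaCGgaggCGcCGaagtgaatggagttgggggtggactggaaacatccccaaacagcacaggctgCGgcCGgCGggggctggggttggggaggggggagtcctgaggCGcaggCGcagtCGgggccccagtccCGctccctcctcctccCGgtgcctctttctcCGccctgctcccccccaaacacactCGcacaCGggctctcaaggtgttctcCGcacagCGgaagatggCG
The Otud7a window held 51 CpG and 80.3% G and C, and 99.4% of the 32851 mouse promoter windows held as many CpG or fewer. The Tmem28 window held 23 CpG, as many as or more than 80.0% of windows. The RefSeq start of Tmem28 lies 857 bases before the start of the locus given above, so its window ends before that locus. The Lrrc3b window held 9 CpG and the 3 March1 windows held 5, 9 and 0, against a median of 7 over all windows. The windows of these 4 genes thus ran from CpG-free to among the densest. On both strands, the GC box GGGCGG occurred 3 times in the Otud7a window and 1 time in the Tmem28 window, and in 35.7% of all windows. The cAMP response element TGACGTCA occurred in the Otud7a window and in 1.79% of all windows. CCAAT occurred in the second and the third March1 windows and in 37.4% of all windows, and TATAAA, present in 13.6% of all windows, occurred in none of the 6. These are matches of letters, with no measurement of binding behind them.

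March1 had the highest level per length of the 4 genes in WT brains. It was at 19.1, 22.1 and 19.6 CPM in the KO males, against 44.6, 52.5 and 45.6 CPM in the WT males. In females it was at 24.9, 31.6 and 18.8 CPM in KO brains, against 51.6, 46.6 and 46.1 CPM in WT brains. The WT libraries lay close together, within 1.18-fold of each other, and the KO libraries spread over 1.68-fold, mostly through KO females 2 and 3. The log2 fold change, KO over WT, was -1.23 (SE 0.0916) in males and -0.94 (SE 0.176) in females, and -1.08 (SE 0.110) over both sexes, a KO level of 47.2% of WT.

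Lrrc3b had the fewest reads of the 4 genes, with 91 to 139 counts per KO library and 158 to 475 per WT library. Its levels were 1.72, 2.22 and 1.55 CPM in KO males, against 6.22, 7.95 and 7.63 CPM in WT males. In KO females they were 2.94, 3.28 and 1.98 CPM, against 5.45, 3.97 and 6.02 CPM in WT females. The groups stood apart within each sex, but the gap was wide in males and narrow in females, where KO female 2 came near WT female 2. The KO males were at 25.2% of the WT males, a log2 fold change of -1.99 (SE 0.182), and the KO females at 53.0% of the WT females, -0.92 (SE 0.247). Across both sexes the log2 fold change of Lrrc3b was -1.45 (SE 0.215), the lowest of the 4.

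Otud7a was at 6.87, 8.08 and 6.52 CPM in KO males, against 11.2, 14.9 and 12.6 CPM in WT males. In females it was at 8.01, 8.38 and 7.42 CPM in KO brains, against 14.3, 13.7 and 16.3 CPM in WT brains. Each sex had a clear gap between the groups, and the log2 fold changes were -0.85 (SE 0.138) in males and -0.90 (SE 0.116) in females. Over both sexes KO brains held 54.6% of the WT level of Otud7a, -0.87 (SE 0.0871). A processed pseudogene, Gm5898, lies on the same strand within the span of Otud7a and took 7871 counts over the 12 libraries, against 6860 for Otud7a. Gm5898, singled out after its values were seen, did not pass the test, with a log2 fold change of 0.12 over both sexes (SE 0.102, edgeR adjusted p = 0.680). How reads were shared between the overlapping genes is not given in the sources used here.

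Tmem28 had the smallest fold change and the tightest groups. It was at 12.3, 11.2 and 10.9 CPM in KO males, against 16.4, 17.1 and 16.5 CPM in WT males. In females it was at 9.22, 9.63 and 9.02 CPM in KO brains, against 15.4, 15.2 and 15.54 CPM in WT brains. The 6 WT libraries lay within 1.12-fold of each other. The log2 fold change of Tmem28 was -0.54 (SE 0.0889) in males, -0.73 (SE 0.0970) in females and -0.63 (SE 0.0601) over both sexes, a KO level of 64.5% of WT.

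For each of the 4 genes, all 6 KO libraries lay below all 6 WT libraries, as they did for 1.29% of the 19767 genes tested (8.82% of genes in males alone and 6.19% in females alone); this separation is part of what the genes were chosen for. The lowest WT library exceeded the highest KO library by 1.41-fold for March1, 1.34-fold for Otud7a, 1.24-fold for Tmem28 and 1.21-fold for Lrrc3b. The genes with the largest fold change and with the widest margin between libraries were thus not the same. In the fit over both sexes 1.52% of genes were called lower and 0.374% higher (edgeR, adjusted p under 0.05). Ordered by fold change, 0.506% of genes had a lower estimate than Lrrc3b, 1.12% than March1, 1.91% than Otud7a and 3.92% than Tmem28, and the median over all genes was 0.00.

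**Figure D1:**
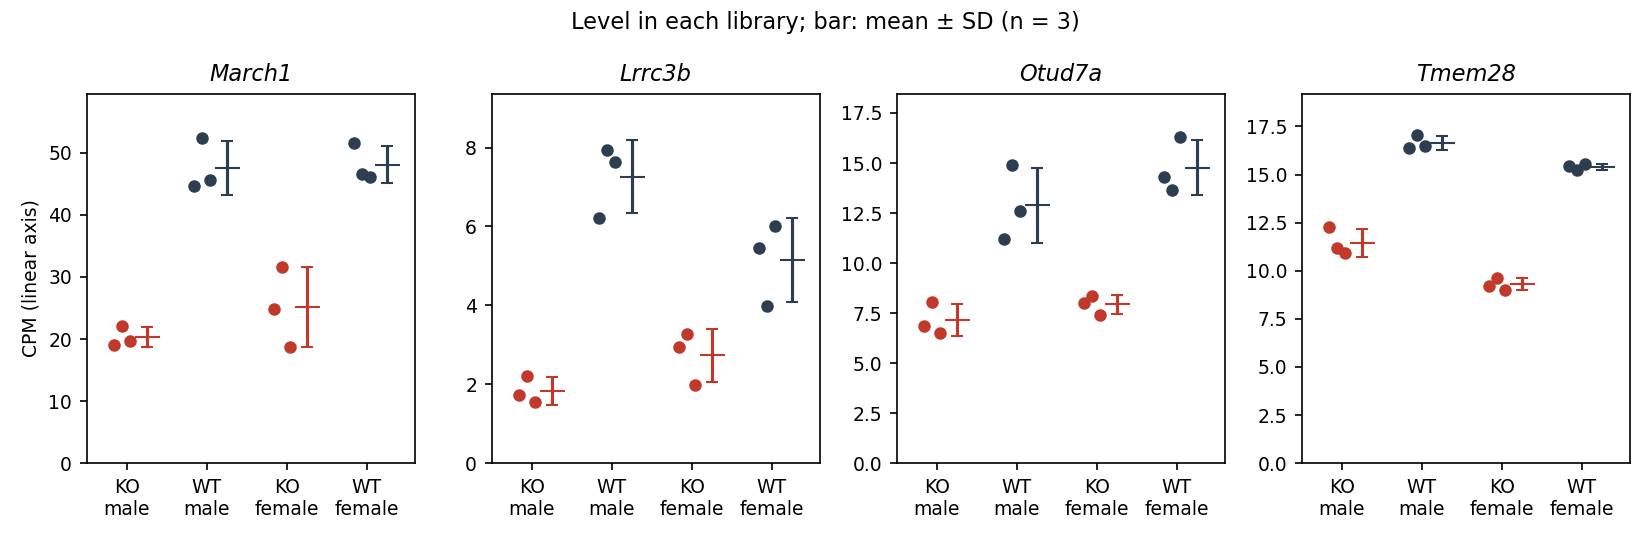
CPM of March1, Lrrc3b, Otud7a and Tmem28 on linear axes from 0, with 1 point per library (replicates 1 to 3 from left to right) and the mean ± SD of the 3 libraries beside the points, for KO males, WT males, KO females and WT females. No KO point reaches the WT points of the same gene; the narrowest margin is that of Lrrc3b in females, with 3.28 CPM in KO female 2 and 3.97 CPM in WT female 2.

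Levels of different genes were compared per kilobase of annotated exon. In KO brains March1 was at 3.18 ± 0.693, Tmem28 at 2.65 ± 0.329, Otud7a at 2.08 ± 0.204 and Lrrc3b at 1.13 ± 0.341 CPM per kb (SD, n = 6). In WT brains the values were 6.69 ± 0.465 for March1, 4.10 ± 0.184 for Tmem28, 3.82 ± 0.494 for Otud7a and 3.06 ± 0.720 for Lrrc3b (SD, n = 6). March1 stood above the others in WT brains, while Tmem28 and Otud7a, and Otud7a and Lrrc3b, differed by less than the sum of their SDs. Of the protein-coding genes tested, 61.1% had a lower WT level per kb than March1 and 41.1% a lower one than Lrrc3b.

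Within a group, the same library often led or trailed for all 4 genes. KO female 2 was the highest and KO female 3 the lowest of the KO females for 4 of 4 genes. WT male 2 was the highest and WT male 1 the lowest of the WT males for 4 of 4. Over all genes tested, KO female 2 was the highest of its group for 35.6% and KO female 3 the lowest for 37.3%, and WT male 2 was the highest for 37.4% and WT male 1 the lowest for 30.6%. The summed CPM of 10 neuronal markers was 6264 in KO female 2 and 6095 in KO female 3, and 6872 in WT male 2 and 6554 in WT male 1. It was higher in KO female 1, at 6301, than in KO female 2, an order that the 4 genes did not share. Summed neural progenitor markers ran the other way. They were lowest in KO female 2 (1444 CPM) and highest in KO female 3 (1692 CPM), and lowest in WT male 2 (1367 CPM) and highest in WT male 1 (1605 CPM). Summed forebrain markers were lowest in KO female 2 (777 CPM) and WT male 2 (594 CPM), but highest in KO female 1 (1045 CPM) and WT male 3 (979 CPM). The part of tissue content in the library order of the 4 genes was not tested.

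A difference between females and males was not used to choose the genes, and it was tested over the 12 libraries with genotype in the model. Tmem28 averaged 9.29 ± 0.310 CPM in KO females and 11.5 ± 0.719 CPM in KO males, and 15.4 ± 0.157 CPM in WT females and 16.6 ± 0.374 CPM in WT males (SD, n = 3 each). Tmem28 was lower in females, by a log2 difference (female over male) of -0.21 (SE 0.0600, edgeR adjusted p = 0.0244). The call was lost in WT libraries alone (-0.11, edgeR adjusted p = 0.494), without KO male 1 (-0.17, adjusted p = 0.0584) and without KO female 1 (-0.20, adjusted p = 0.0531). Such a difference was common, since 10.9% of genes were called lower and 12.9% higher in females. Tmem28 is on the X chromosome; males and females were counted in separate tables, and sex cannot be told apart from anything else that differed between the tables. The other genes did not pass: March1 had a log2 difference of 0.16 (SE 0.109, adjusted p = 0.327), Otud7a 0.17 (SE 0.0866, adjusted p = 0.175) and Lrrc3b 0.02 (SE 0.210, adjusted p = 0.968).

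The difference in fold change between the sexes, female minus male, was 1.07 (SE 0.313) for Lrrc3b, 0.29 (SE 0.211) for March1, -0.05 (SE 0.180) for Otud7a and -0.19 (SE 0.112) for Tmem28 on the log2 scale. These are given without a test because lower levels in both sexes were part of the choice. For Lrrc3b the 3 WT females were at 3.97 to 6.02 CPM and the 3 WT males at 6.22 to 7.95 CPM. The KO females were at 1.98 to 3.28 CPM and the KO males at 1.55 to 2.22 CPM. Summed neuronal markers were 6095 to 6301 CPM in KO females, against 6465 to 6720.0 CPM in WT females, without overlap, and 6526 to 6844 CPM in KO males, against 6554 to 6872 CPM in WT males, with overlap. None of the 10 neuronal markers was called in either direction over both sexes, and 8 of 10 had an estimate below 0, with a median log2 fold change of -0.12. Neural progenitor markers had a median of 0.12 and forebrain markers 0.21, likewise with 0 called of 10 and 0 called of 8. Over all genes 1.52% were called lower and 0.374% higher. Erythroid markers summed to 1839 to 2526 CPM in KO males, against 2568 to 3224 CPM in WT males, without overlap, and overlapped in females, with 0 of 9 called. The Hox genes of hindbrain and spinal cord shifted in opposite directions in the 2 sexes. Their median log2 fold change, KO over WT, was -2.56 in males (0 of 17 called) and 0.99 in females (0 of 18 called). The part of these shifts in the lower levels of the 4 genes, or in their differences between the sexes, was not tested.

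The Hox content of a library, taken as the mean log2 CPM of 19 Hox genes, was tested as a coefficient beside sex and genotype. None of the 4 genes followed it past the threshold. Lrrc3b had the largest coefficient, 0.08 per log2 unit of Hox level (SE 0.0309, edgeR adjusted p = 0.166, unadjusted p = 0.0173). Those of March1 (0.02, SE 0.0191, adjusted p = 0.591), Otud7a (0.02, SE 0.0143, adjusted p = 0.391) and Tmem28 (-0.01, SE 0.0107, adjusted p = 0.798) were smaller, and 1.16% of all genes were called. In the 6 libraries low in Hoxa5 the log2 fold changes, KO over WT, were -1.31 for Lrrc3b, -1.09 for March1, -0.77 for Otud7a and -0.61 for Tmem28. With the Hox level as a covariate over all 12 libraries they were -1.42 for Lrrc3b, -1.08 for March1, -0.86 for Otud7a and -0.63 for Tmem28. These fold changes are a description, since the genes were chosen for lower KO levels.

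**Figure D2:**
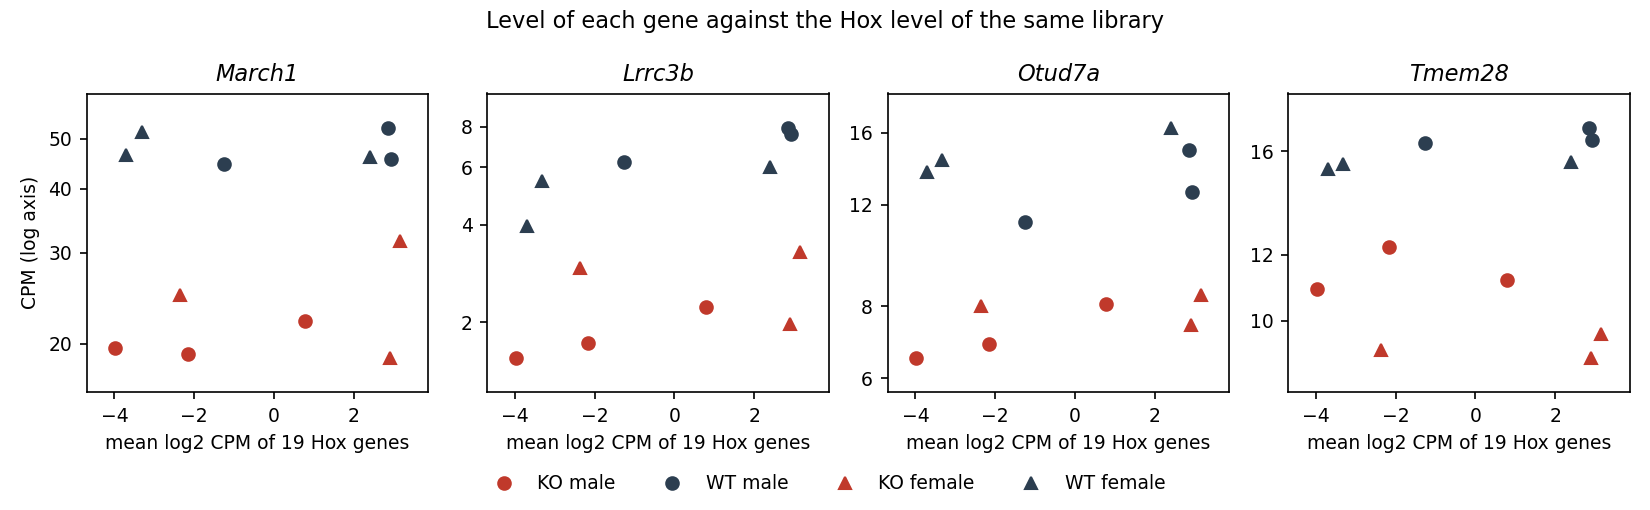
CPM of each gene (log axis) against the mean log2 CPM of 19 Hox genes in the same library, with KO libraries in red and WT libraries in dark blue, circles for males and triangles for females. KO and WT points stay apart at every Hox level, which follows from the choice of genes with all KO libraries below all WT libraries. Lrrc3b has the steepest coefficient, 0.08 per log2 unit.

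Tmem28 was compared with the genes of the NALCN complex. Fam155a, its paralog and the auxiliary subunit of the channel, fell in KO brains. Fam155a was at 38.5, 42.2 and 37.9 CPM in KO males, against 45.2, 52.1 and 48.7 CPM in WT males. In females it was at 38.7, 38.0 and 39.6 CPM in KO brains, against 57.6, 51.5 and 48.9 CPM in WT brains. All 6 KO libraries lay below all 6 WT libraries for Fam155a too, as for 1.29% of all genes. Its log2 fold change over both sexes was -0.37 (SE 0.0574, edgeR adjusted p = 0.00400). Of the 4 complex genes tested beside Tmem28, 1 was called lower and 0 higher, with a median of -0.25. Of all genes, 1.52% were called lower. Nalcn, the channel pore, averaged 52.2 ± 5.27 CPM in KO brains and 53.9 ± 6.02 CPM in WT brains (SD, n = 6), with a log2 ratio of -0.05 (SE 0.0808, edgeR adjusted p = 0.868). Unc79, a large cytoplasmic subunit, was at -0.12 (SE 0.116, adjusted p = 0.720). Unc80, which bridges UNC79 and the channel, was at -0.48 (SE 0.147, edgeR adjusted p = 0.145), with KO and WT females overlapping, and DESeq2's Wald test called it (adjusted p = 0.0363). Side by side, the log2 fold changes were -0.63 for Tmem28, -0.37 for Fam155a and -0.05 for Nalcn.

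**Figure D3:**
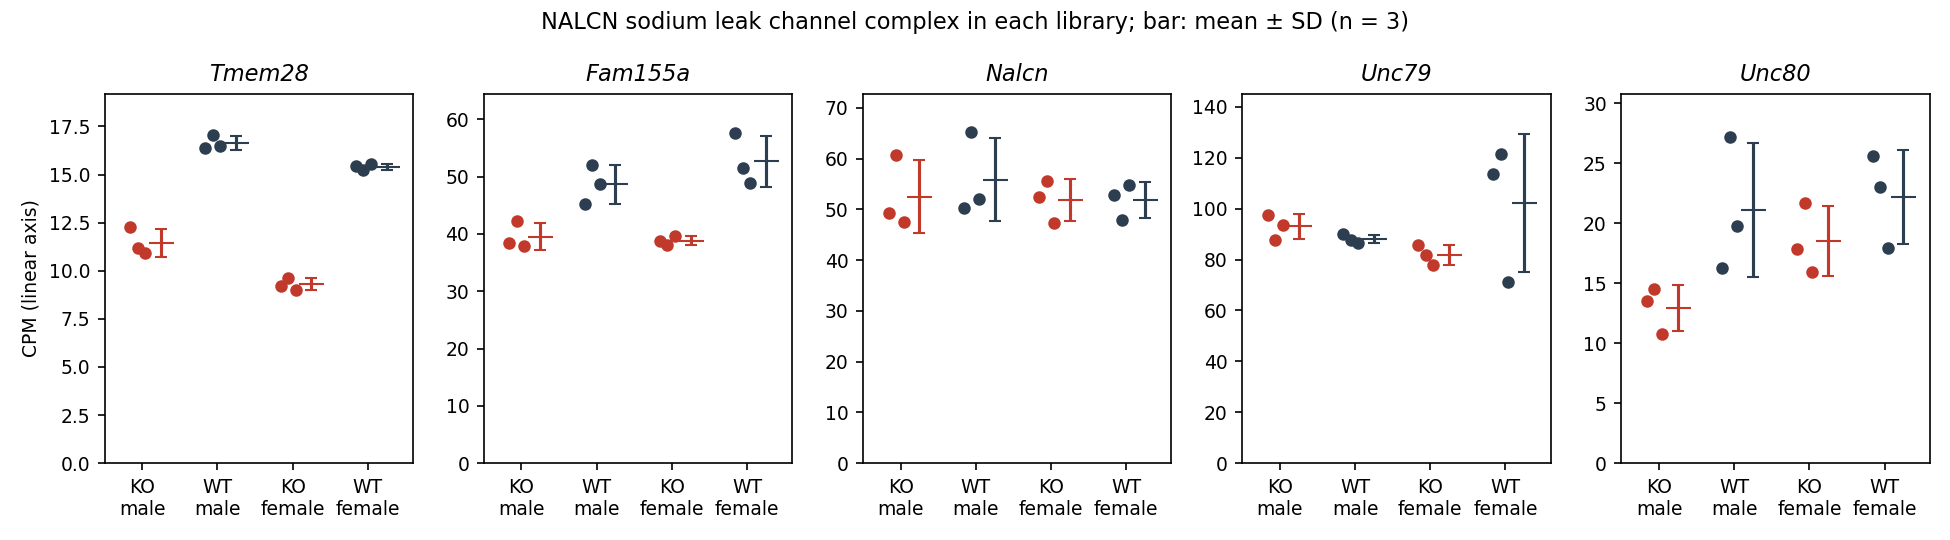
CPM of Tmem28 and the 4 other NALCN complex genes on linear axes from 0, with 1 point per library and the mean ± SD (n = 3) for KO males, WT males, KO females and WT females. Tmem28 and Fam155a have every KO point below every WT point, while the KO and WT points of Nalcn, Unc79 and Unc80 overlap.

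None of the other MARCH ligases passed the test. Of 10 tested, 0 were called in either direction over both sexes with edgeR, against 1.52% of all genes called lower and 0.374% higher. A count of 0 in lists as short as those of this paragraph is near that share. The median log2 fold change of the 10 ligases was -0.06. The most abundant were March6, a ligase of the endoplasmic reticulum, at 0.04 (SE 0.0640, adjusted p = 0.850), and March9 at -0.07 (SE 0.0654, adjusted p = 0.682). March8, the nearest relative of March1 and named after its values were seen, averaged 81.1 ± 3.76 CPM in KO brains and 84.9 ± 4.70 CPM in WT brains (SD, n = 6), -0.07 (SE 0.0478, adjusted p = 0.609). March4, also named after its values were seen, was at -0.27 (SE 0.0629) and stood at the threshold (adjusted p = 0.0501); it had an unadjusted p of 0.000956. In 5 of 19 alternatives, among them the fits without WT male 1 and without KO female 2, 1 of the 10 ligases was called. A list of MHC class II genes and genes tied to them or to MARCH1 was tested too. Over both sexes 0 of 9 were called with edgeR or with DESeq2, and 1 had an unadjusted edgeR p under 0.05. These are RNA levels, and the removal of proteins from the cell surface was not measured. The log2 fold changes of these genes were below 0 for 9 of 9, with a median of -0.15. In males this held for 8 of 8 tested, with a median of -0.46, and in females for 5 of 7, with a median of -0.10. Several of these genes had few counts, such as Cd74 at 10 to 32 and H2-Eb1 at 7 to 30 per library. The transferrin receptor gene Tfrc was at -0.09 (SE 0.119, adjusted p = 0.802) and Cd83, an activation marker of dendritic cells, at -0.29 (SE 0.196, adjusted p = 0.577). Microglial markers summed to 59.2 to 81.2 CPM over the KO libraries and 60.1 to 103 CPM over the WT libraries. With edgeR, 0 of the 10 markers were called over both sexes, with 1 at an unadjusted p under 0.05. The estimate was below 0 for 9 of 10, with a median log2 fold change of -0.17, and in males for 10 of 10, with a median of -0.21. In males the microglial sums were 73.2 to 81.2 CPM in KO brains, against 76.4 to 103 CPM in WT brains, with overlap. The part of microglial content in the lower level of March1 was not tested.

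Among 13 OTU deubiquitinases other than Otud7a, 1 was called lower and 0 higher, against 1.52% and 0.374% of all genes, and the median was 0.01. That gene, Otud1, was at 3.29, 3.37 and 4.03 CPM in KO males, against 4.64, 5.32 and 4.96 CPM in WT males. In females Otud1 was at 4.77, 3.71 and 4.16 CPM in KO brains, against 5.10, 5.08 and 6.32 CPM in WT brains. It separated within each sex and overlapped across them. In males alone 8.82% of all genes separated with KO below WT, and in females alone 6.19%. The log2 fold change of Otud1 was -0.43 (SE 0.102, edgeR adjusted p = 0.0476), a call kept in 5 of 19 alternatives. Without any 1 library other than KO female 1 the call of Otud1 was lost, at edgeR adjusted p values of 0.0518 to 0.136. Otud7b, the paralog of Otud7a and named after its values were seen, averaged 21.5 ± 1.03 CPM in KO brains and 21.5 ± 2.37 CPM in WT brains (SD, n = 6), 0.01 (SE 0.0670, adjusted p = 0.980).

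The mouse genes of the human microdeletion beside Otud7a gave 0 calls of 5 tested, near the 1.52% lower and 0.374% higher of all genes. Chrna7, the nicotinic receptor subunit gene 232 kb from Otud7a, averaged 6.16 ± 1.33 CPM in KO brains and 8.26 ± 1.37 CPM in WT brains (SD, n = 6). Its log2 fold change was -0.43 (SE 0.145, edgeR adjusted p = 0.195), with no overlap in males (as for 8.82% of all genes) and overlap in females. Klf13, a transcription factor gene 127 kb away, was at 0.03 (SE 0.0589, adjusted p = 0.891), Fan1, a DNA repair nuclease gene, at 0.03 (SE 0.0888), Mtmr10 at 0.04 (SE 0.0721) and the ion channel gene Trpm1 at 0.09 (SE 0.505).

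For Lrrc3b, the family member Lrrc3 averaged 23.3 ± 2.73 CPM in KO brains and 27.6 ± 3.38 CPM in WT brains (SD, n = 6), -0.24 (SE 0.0945, edgeR adjusted p = 0.267). Among 22 other membrane proteins of neurons with leucine-rich repeats, 1 was called lower and 0 higher, with a median of -0.11. Of all genes, 1.52% were called lower. Without WT male 1, 3 of the leucine-rich repeat genes were called. The gene called with all libraries was Lingo2. It was at 14.2, 15.6 and 13.8 CPM in KO males, against 19.6, 25.5 and 22.6 CPM in WT males. In females Lingo2 was at 11.95, 16.7 and 12.5 CPM in KO brains, against 21.7, 23.1 and 21.3 CPM in WT brains. No KO library of Lingo2 reached a WT library, as for 1.29% of all genes, and the log2 fold change was -0.66 (SE 0.0895, edgeR adjusted p = 0.00179). Elfn2 of the same list, named after its values were seen, separated too, with KO libraries up to 36.7 CPM and WT libraries from 37.3 CPM.

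Protein-coding neighbours within 500 kb were also tested. Npy5r, a neuropeptide Y receptor gene 208 kb from March1, was called lower at very low counts, 5 to 23 per KO library and 22 to 59 per WT library. It averaged 0.265 ± 0.122 CPM in KO brains and 0.687 ± 0.181 CPM in WT brains (SD, n = 6), -1.35 (SE 0.313, edgeR adjusted p = 0.0441). The call of Npy5r was lost in 11 of 18 alternatives, among them the fits without any 1 library other than KO male 2, KO female 2 or KO female 3, at adjusted p values of 0.0539 to 0.126. Without KO female 2, 2 of the 4 neighbours of March1 were called. The adjacent receptor gene Npy1r, 226 kb from March1 and named after its values were seen, was at -0.65 (SE 0.191, adjusted p = 0.121), and the nearest tested neighbour, Tma16 at 1.48 kb and likewise named afterwards, at -0.03 (SE 0.0701, adjusted p = 0.894). Of the 4 neighbours of March1 tested with all libraries, 1 was called lower, against 1.52% of all genes.

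Eda, which encodes the signalling ligand ectodysplasin and lies 127 kb from Tmem28, was at 5.98, 6.73 and 5.84 CPM in KO males, against 8.06, 9.58 and 7.86 CPM in WT males. In females Eda was at 5.54, 4.96 and 4.73 CPM in KO brains, against 7.48, 6.41 and 7.91 CPM in WT brains. The groups did not overlap within a sex, where 8.82% of all genes separated with KO below WT in males and 6.19% in females. The log2 fold change of Eda over both sexes was -0.49 (SE 0.0867, edgeR adjusted p = 0.0101). Pja1, a ubiquitin ligase gene 349.7 kb from Tmem28 and named after its values were seen, averaged 185 ± 11.6 CPM in KO brains and 177 ± 13.2 CPM in WT brains (SD, n = 6), 0.06 (SE 0.0502, adjusted p = 0.662). The only tested neighbour of Lrrc3b, the kinase gene Nek10, was at 0.67 (SE 0.756, adjusted p = 0.768). None of 3 neighbours of Otud7a was called with edgeR over both sexes, against 1.52% lower and 0.374% higher of all genes.

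Over both sexes edgeR called 5 of 71 genes of these families and neighbourhoods, with 21 at an unadjusted p under 0.05. Of all 19767 genes, 1.52% were called lower and 0.374% higher, and 2708 had an unadjusted p under 0.05. In males alone edgeR called 0 of 70, with 15 at an unadjusted p under 0.05 (2230 of 18671 over all genes), and 0.337% of all genes were called lower. In females alone it called 0 of 66, with 9 at an unadjusted p under 0.05 (1398 of 18709 over all genes), and 0.00535% of all genes were called lower. DESeq2's Wald test called 2 NALCN complex genes, 1 leucine-rich repeat gene and 1 neighbour of March1 in males, and 1 NALCN complex gene and 1 leucine-rich repeat gene in females. DESeq2 called more genes than edgeR throughout. In males it called 362 lower and 122 higher of 16848 genes, and in females 129 lower and 50 higher of 15791. Without WT male 1, or with a replicate block, edgeR also called 1 leucine-rich repeat gene in males. Fam155a, Lingo2 and Eda kept their calls in 18 of 19 alternatives each, and lost them in the 6 libraries low in Hoxa5, where the log2 fold change was -0.36 for Fam155a (edgeR adjusted p = 0.281), -0.69 for Lingo2 (adjusted p = 0.104) and -0.38 for Eda (adjusted p = 0.551).

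**Figure D4:**
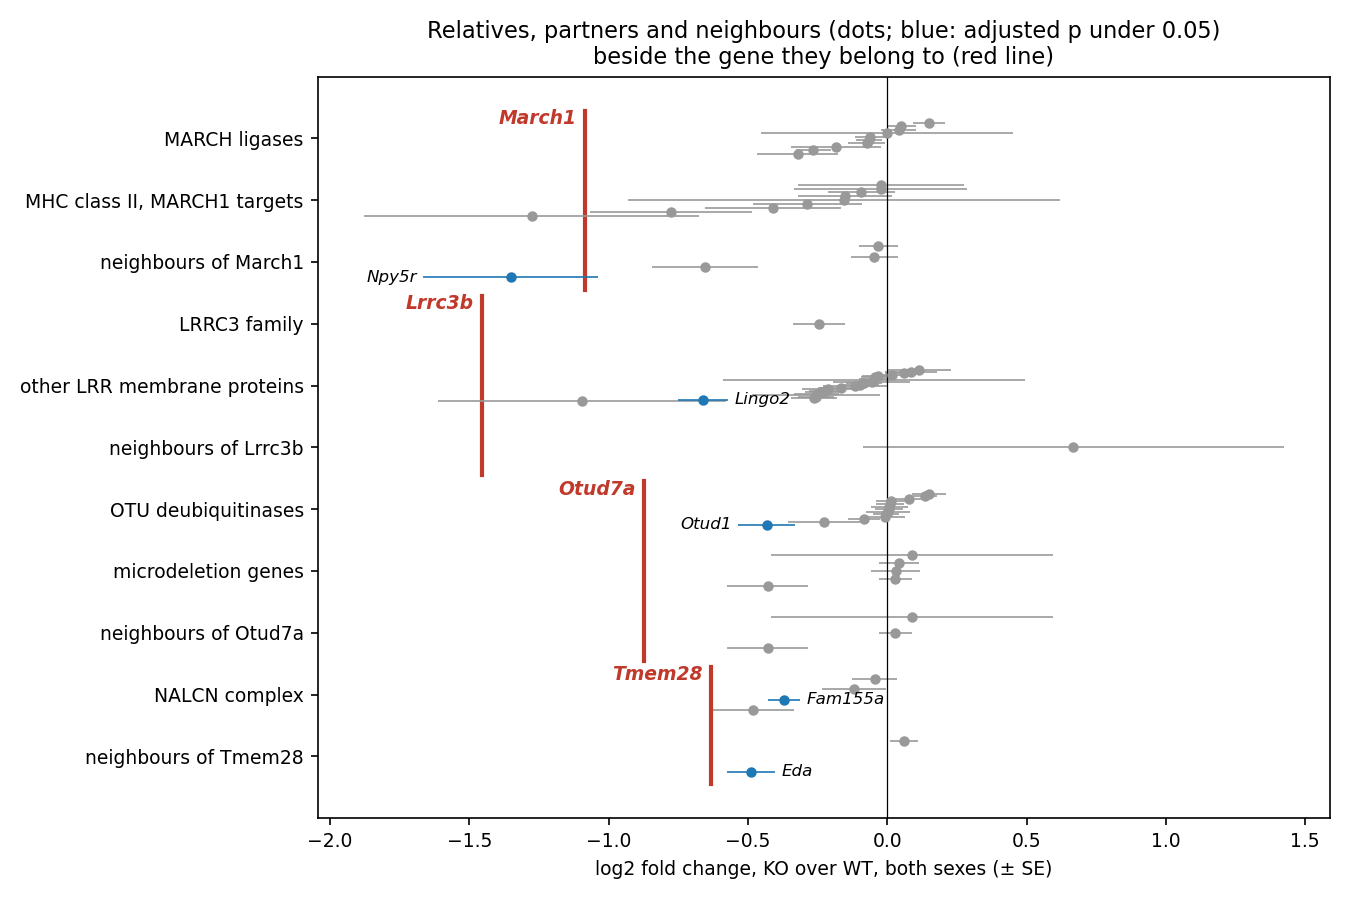
Log2 fold change, KO over WT over both sexes, with its SE, of the relatives, partners and neighbours of each gene, by list (dots, blue where the edgeR adjusted p is under 0.05), beside the fold change of the gene they belong to (red line). Npy5r, Lingo2, Otud1, Fam155a and Eda are the called genes. Most dots lie nearer 0 than the red line of their section, which is to be read with the red-line genes having been chosen for their lower KO levels.

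The genes whose pattern over the 12 libraries was most like each of the 4 were found by the root mean square difference of centred log2 CPM, where 0 is an identical pattern. They follow the KO and WT difference by construction and are given without a test. Nearest to March1 were Slitrk4 (0.120), a synaptic adhesion gene whose log2 fold change was -1.20, the cation channel gene Trpc5 (0.147), Pcdh11x (0.160), Sntg1 (0.161) and the AMPA receptor gene Gria4 (0.162). Nearest to Lrrc3b were Adcy2 (0.202), an adenylyl cyclase gene, the serotonin receptor gene Htr1a (0.209), Dpp10 (0.232), Trpc5 (0.264) and Htr7 (0.267). Adcy2 shared the uneven fold changes of Lrrc3b, with -2.03 in males and -1.04 in females.

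Nearest to Otud7a were Cnnm1 (0.130), Pabpc1l2a-ps (0.139), Gria4 (0.140), Vwc2 (0.142) and Pcdh7 (0.147). Nearest to Tmem28 were Pcdhac2 (0.124), Nipal2 (0.127), Slitrk5 (0.129), Gpr165 (0.129) and Tspyl5 (0.131). Gria4 was among the nearest of both March1 and Otud7a, and Trpc5 of both March1 and Lrrc3b. Among the 4 genes themselves March1 and Otud7a were closest, at 0.203, where Otud7a had rank 16 by likeness to March1. Lrrc3b and Tmem28 were farthest apart, at 0.571.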

How the data were processed

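RNA from 12 E15.5 brains was sequenced after depletion of ribosomal RNA with a stranded kit, in either of 2 kit versions and on either of 2 sequencers, not stated per library. The deposited values are whole read counts per gene, without normalization, in 1 table per sex. Before deposit the authors cut reads to a common length and removed adapters (cutadapt 2.6), mapped them by HISAT2 2.1.0 to GRCm38, and derived the gene counts from the coverage that StringTie 2.0.6 gave for Ensembl 81 transcripts. The strand setting is not given in the sources used here.

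Counts were tested with edgeR 4.0.16 in R 4.3.3 (TMM, filterByExpr with a minimum count of 10 and total of 15, robust quasi-likelihood F test, Benjamini-Hochberg adjustment over all genes, threshold 0.05), in each sex and over 12 libraries with sex as a covariate. Nsd2 was left out of all counts of genes. The fits were tested on simulated counts. Log2 CPM used a prior count of 2. Positions, exon lengths and neighbours came from GENCODE M 21, which is newer than the authors' annotation, so lengths are approximate. Promoters came from RefSeq. At 40398665 to 59304196 counts per library, genes with few counts were imprecise, and PCR copies were not removed. Replicate libraries of a group differed by more than sampling noise, so none was taken as deposited more than 1 time. Alternatives were RLE normalization, DESeq2 1.42.0, other filters, a replicate block, the Hox level, the spread over all libraries and leaving out each library. Named genes were the 4 genes, up to 4 called members or else the 2 most abundant members of each list or neighbourhood, all NALCN complex and microdeletion genes, and the 5 genes nearest in pattern. Genes outside these rules were named after their values were seen. The 4 genes and the lists were chosen with earlier results of these data known.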

Additional observations from a re-analysis of the deposited data

How the results depend on the processing

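The log2 fold changes of the 4 genes, KO over WT, were recomputed under 172 combinations of gene, comparison and alternative, and all 172 were below 0. That sign was close to fixed in advance, since the genes were chosen for lower KO levels and no KO library reached a WT library. In 171 of the 172 the value moved by less than the spread between replicates, and the exception was Tmem28 in males without KO male 1 (-0.59). Leaving out each library in turn gave -1.29 to -1.15 in males and -1.14 to -0.76 in females for March1, -2.14 to -1.88 and -1.07 to -0.72 for Lrrc3b, -0.94 to -0.73 and -0.95 to -0.82 for Otud7a, and -0.59 to -0.50 and -0.76 to -0.71 for Tmem28. Counts of called genes moved more. DESeq2's Wald test called 362 genes lower and 122 higher in males (edgeR: 63 and 23), 129 lower and 50 higher in females (edgeR: 1 and 2), and 586 lower and 218 higher when the sexes were fitted together (edgeR: 300 and 74). With the spread taken over all 12 libraries 28 genes were lower and 9 higher in females, and with no filter 4 were lower. The 6 libraries with under 1 CPM of Hoxa5 gave 31 lower and 6 higher over both sexes. WT libraries alone gave 888 genes called between females and males, against 4692, and keeping only genes above 1 CPM in 3 or more libraries gave 408 for the Hox level, against 229. With 1 library left out, males had 11 to 88 genes lower and 9 to 25 higher, females 0 to 34 lower and 0 to 23 higher, and both sexes 162 to 315 lower and 38 to 80 higher. The interaction then had 0 to 22 calls, female against male 3588 to 5619 and the Hox level 55 to 1285. The cause of these moves was not tested. Same-numbered KO and WT libraries had correlations of -0.0441 to 0.185 in males and -0.0529 to 0.195 in females. Libraries with different numbers had correlations of -0.129 to 0.116 in males and -0.225 to 0.212 in females. Whether the replicate numbers pair the samples cannot be told from these values, and the main fits used no pairing. A replicate block gave 219 genes lower and 70 higher in males, 0 and 0 in females, and 44 higher over both sexes. Over both sexes DESeq2 called 1 of the MARCH ligases (edgeR: 0), 2 OTU deubiquitinases (edgeR: 1), 2 NALCN complex genes (edgeR: 1), 4 leucine-rich repeat genes (edgeR: 1) and 2 neighbours of March1 (edgeR: 1). Depth limits genes with few counts, such as Npy5r at 5 to 59 counts per library.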
